A study of Bos taurus with 129 samples.

Results

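Whole blood transcriptomes of cattle labelled with bovine respiratory disease (BRD) were compared with those of cattle labelled as healthy, 45 days after enrolment. The members were the libraries labelled day 45, 26 libraries or 20.2% of those in the series, of which 14 came from cattle labelled as diseased (BRD) and 12 from healthy cattle. All were crossbred beef steers in a feeding trial, and each animal gave 1 library at day 45. Blood was drawn into RNA-stabilising tubes, so the RNA is that of all circulating cells together.

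Every animal, healthy or diseased, received one of 3 trace mineral supplements. INR was a mix of sulfate (inorganic) forms of copper, cobalt, manganese and zinc. AAC carried copper, manganese and zinc complexed to amino acids, and cobalt as glucoheptonate. COMBO was AAC together with an oral drench of trace minerals and vitamin E. The BRD cattle were 4 on AAC, 3 on COMBO and 7 on INR, and the healthy cattle were 4 on each. Vaccination and deworming were common to all of them. Healthy meant never diagnosed with, nor treated for, clinical BRD during the trial. The dates of diagnosis and treatment were not given in the sources used here, so the interval between illness and the day 45 sample is unknown. By the study's protocol, COMBO cattle treated for illness were also drenched again. Pens at enrolment differed as well. In AAC, pens 2 and 8 each held 2 BRD and 2 healthy animals. In COMBO, the healthy animals started in pen 5 and the BRD animals in pen 6, so that pen and disease cannot be told apart there. A further drench at treatment cannot be told apart from disease there either. In INR, the BRD animals came from 3 pens and the healthy animals from 2 of the same pens.

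BRD is a disease of the lower airways in which viral infection and stress open the way for bacterial pneumonia. In blood, acute illness is known for neutrophil mobilisation, interferon-stimulated genes that mark viral infection, acute phase and glucocorticoid responses, and shifts in circulating lymphocytes. Sampling at a fixed day of the trial asks whether cattle with a diagnosis differ in such genes at that day, whatever the stage of the disease.

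The day 45 libraries held between 39497591 and 61692136 counts, and the healthy animals lay inside the range of the BRD animals. Each of the 26 libraries was closest to a library of the same animal from another day over the 1000 most variable genes. Defining transcripts of blood were present, with medians over the 26 libraries of 1290 CPM (counts scaled to a library total of 1000000) for the beta globin HBB, 579 CPM for the neutrophil alarmin S100A12, 362 CPM for the T cell receptor subunit CD3E, 651 CPM for the B cell receptor subunit CD79A and 246 CPM for the platelet factor PF4. Some markers were absent or nearly so: the neutrophil collagenase MMP8 and the cathelicidin precursor CAMP had no count in 21 of the 26 libraries. Some connective tissue transcripts were sparse, with LUM at 0 in 14 libraries and POSTN at 0 in 21. The 16 tested members together summed to 172 to 298 CPM in healthy and 138 to 529 CPM in BRD animals. In the principal component analysis, the first component held 18.1% of the variance and the healthy animals (from -83.6 to 94, median -12.8) lay within the range of the BRD animals on its lower side and just beyond it on its upper side (from -146 to 84.4, median 16.1).

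No gene was called different between BRD and healthy cattle at day 45. After the low count filter, 17530 genes were tested with edgeR's quasi-likelihood test with supplement as a covariate, and 0 genes passed an FDR of 0.10 (percent called 0). The smallest FDR was 1.0. At an unadjusted p below 0.05 stood 535 genes (3.05% of those tested), 231 higher (1.32%) and 304 lower (1.73%) in BRD. The median log2 fold change over all genes was 0.0024, and 50.9% of genes had a value above 0. For 14803 genes (84.4%) the 95% interval of the fold change lay wholly inside a 2-fold difference in either direction, and for 11535 it lay inside a 1.5-fold difference. In no gene did the 14 BRD libraries and the 12 healthy libraries separate without overlap (percent called 0).

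**Figure D1:**
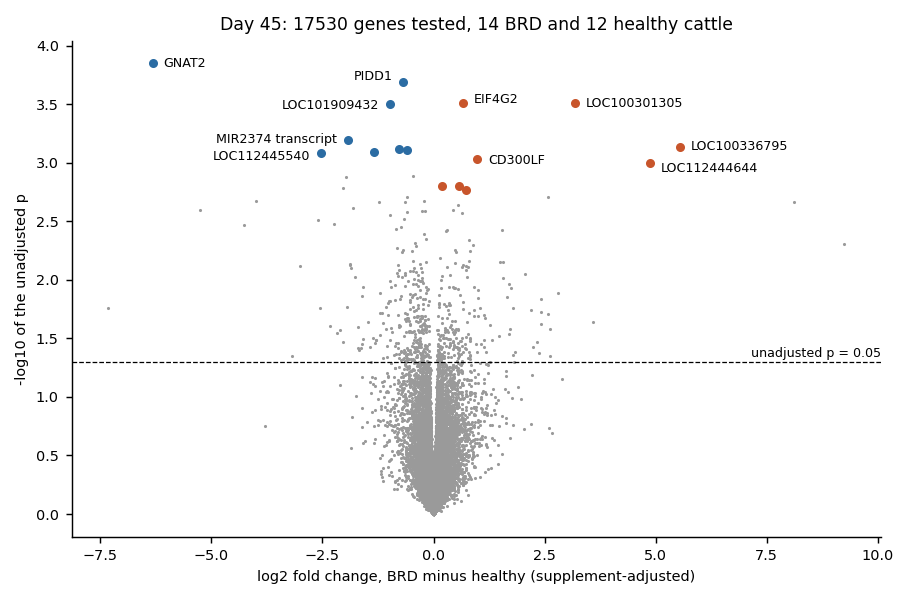
Log2 fold change at day 45 (BRD minus healthy, x axis) against minus the log10 of the unadjusted p (y axis), with 1 point per gene for 17530 genes. The 8 genes of smallest p higher in BRD are in orange and the 8 lower in blue, and none of them passed an FDR of 0.10.

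The genes of smallest p are given here as not called. Among the 8 that were higher in BRD, EIF4G2, a translation initiation factor related to eIF4G, had the smallest. It stood at 164, 265 and 459 CPM (lowest, median and highest) in the 12 healthy animals and at 257, 527 and 590 CPM in the 14 BRD animals. In 9 of the 14 BRD animals EIF4G2 was above every healthy animal, all 4 of the AAC BRD animals included, while the ranges overlapped below. Its log2 fold change was 0.66 (standard error 0.16, 95% interval 0.34 to 0.99, unadjusted p = 0.00031, FDR = 1.0 by edgeR). On the RefSeq map it overlaps another gene, LOC112441677, and reads of one could be counted for the other.

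LOC100301305, annotated as a variable segment of an antigen receptor, ranged from 0.0401 to 1.70 CPM (median 0.172) in healthy animals and from 0.0966 to 12.7 CPM (median 1.29) in BRD animals. Of the BRD animals, 7 lay above every healthy one. The log2 fold change was 3.18 (standard error 0.76, unadjusted p = 0.000311, FDR = 1.0 by edgeR). Variable segments are members of a large family of near-identical genes, so its counts may be shared with relatives.

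LOC100336795 gave a log2 fold change of 5.54 (standard error 1.44), and this value came from 2 animals. It was at 0.253 CPM or less in every healthy animal, with a median of 0 CPM, and the BRD median was 0.0425 CPM. AAC animal 9 stood at 18.6 CPM and COMBO animal 54 at 14.9 CPM, and all the other BRD animals were at 0.328 CPM or lower. LOC112444644, a long non-coding RNA, gave a log2 fold change of 4.88 (standard error 1.31) of the same kind: it was at 0 in 8 of the 14 BRD animals, and 4 of them carried between 0.672 and 2.36 CPM.

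CD300LF, an inhibitory receptor of myeloid cells, was at 1.39, 2.75 and 5.03 CPM (lowest, median, highest) in healthy animals and at 1.03, 5.09 and 11.2 CPM in BRD animals. It was above the healthy median in 13 of the 14 BRD animals and above the highest healthy animal in 7. Its log2 fold change was 0.98 (standard error 0.26, 95% interval 0.45 to 1.52, unadjusted p = 0.000922, FDR = 1.0 by edgeR). CD300LF overlaps RAB37 on the RefSeq map. The other 3 genes on this side had smaller differences. R3HDM2, an RNA-binding protein, gave a log2 fold change of 0.58 (standard error 0.16) and lay above every healthy animal in 10 BRD animals. FNBP1, which links membrane curvature to actin assembly, had 0.72 (standard error 0.20), and FAM107B had 0.20 (standard error 0.057), a small difference with a small error.

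Of the 8 genes that were lower in BRD, GNAT2, the cone photoreceptor transducin subunit, had the smallest p of all genes (log2 fold change -6.32, standard error 1.40, unadjusted p = 0.000141, FDR = 1.0 by edgeR). The value rested on 3 healthy animals. INR animal 10 stood at 34.5 CPM, INR animal 7 at 38.7 CPM and AAC animal 49 at 40.6 CPM, whereas the other 9 healthy animals were at 0.14 CPM or lower and the highest BRD animal at 1.64 CPM. The medians were 0.0765 CPM in healthy and 0.0422 CPM in BRD animals. GNAT2 overlaps AMPD2 on the RefSeq map.

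PIDD1, a scaffold of the PIDDosome that activates caspase-2 and relays DNA damage and centrosome signals, was at 2.42, 3.61 and 5.57 CPM (lowest, median, highest) in healthy animals and at 1.54, 2.26 and 4.69 CPM in BRD animals. It lay below every healthy animal in 9 of the 14 BRD animals, but INR animal 39, with the highest BRD value, was among the upper healthy values. The log2 fold change was -0.68 (standard error 0.16, 95% interval -1.01 to -0.36, unadjusted p = 0.000205, FDR = 1.0 by edgeR).

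LOC101909432 ranged from 0.156 to 0.722 CPM (median 0.386) in healthy and from 0.068 to 0.301 CPM (median 0.181) in BRD animals, and all 14 BRD animals lay below the healthy median. Its log2 fold change was -0.99 (standard error 0.24). The transcript of the microRNA gene MIR2374, which overlaps HMCES and was counted under its RefSeq transcript name, had a median of 19.5 CPM in healthy animals (lowest 2.25 CPM) and of 3.52 CPM in BRD animals (range 1.79 to 27.7 CPM). In 13 of 14 BRD animals it was below the healthy median, and the log2 fold change was -1.93 (standard error 0.49). Libraries made from poly(A) RNA do not capture mature microRNAs, so the value concerns the longer RNA from this place.

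The other 4 on the lower side were 2 non-coding RNAs, LOC101904992 (log2 fold change -0.77, standard error 0.20) and LOC112447039 (-0.59, standard error 0.16), LOC112445540 (-2.54, standard error 0.67) and B3GAT1. B3GAT1 makes the HNK-1 (CD57) carbohydrate found on differentiated natural killer (NK) and T cells. It was at 0.435, 1.65 and 4.19 CPM (lowest, median, highest) in healthy animals and at 0.159, 0.894 and 1.80 CPM in BRD animals, a log2 fold change of -1.33 (standard error 0.35, unadjusted p = 0.000815, FDR = 1.0 by edgeR). Its difference was -1.92 in COMBO and -1.79 in INR, and -0.23 in AAC.

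**Figure D2:**
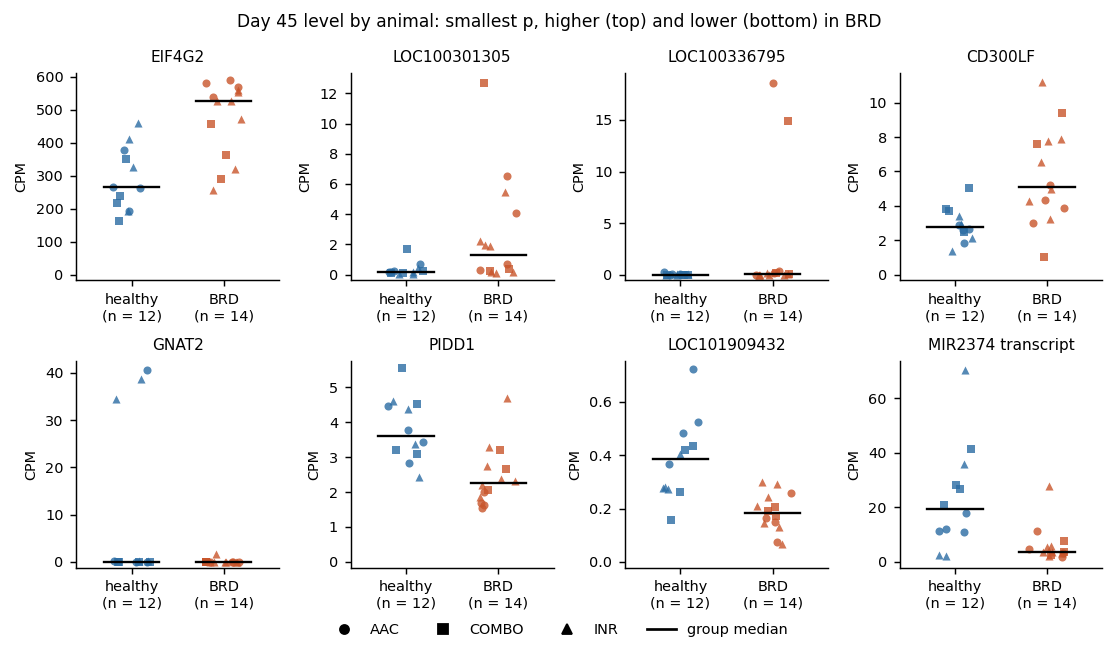
CPM (y axes, from 0) of the 4 genes of smallest p higher in BRD (top) and the 4 lower (bottom), with 1 point per animal, healthy in blue and BRD in orange, and the marker shape giving the supplement. EIF4G2 and PIDD1 were shifted in most BRD animals, whereas LOC100336795 and GNAT2 were high in 2 and 3 animals and near 0 in the rest.

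DESeq2, run on the same genes, called 7 (percent called 0.0399), 3 higher and 4 lower in BRD. These were EIF4G2, LOC100301305, PIDD1 and the MIR2374 transcript from above, and F11R, IGHG1 and TRNAV-CAC-21, which were looked up because of this call. F11R, a tight junction protein also found on platelets, had no count in the 12 healthy animals and in 10 of the 14 BRD animals, and stood at 3.57 CPM or more in AAC animal 9, COMBO animal 54 and INR animals 27 and 40. IGHG1, an immunoglobulin G heavy chain, had no count in 21 animals, and the 5 others (4 healthy, 1 BRD) carried between 29.8 and 250.0 CPM. Both genes were thus all or nothing between animals of the same group. The highest values of TRNAV-CAC-21 were 43.8, 32 and 27.1 CPM, in the same 3 healthy animals in which GNAT2 was high. ATP6, a mitochondrial subunit of ATP synthase, behaved likewise, with 4220 counts in 1 healthy animal, 3414 to 6194 counts in 3 BRD animals and at most 18 counts in the other 22, and its log2 fold change was 0.52 (standard error 1.59).

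Gene groups of the acute response had pooled medians near 0, though in some groups the intervals of many members reached beyond a 2-fold difference. For each group the median log2 fold change of its tested members is given, beside the median of 0.0024 over all genes, and the number of members at an unadjusted p below 0.05, beside the 3.05% of all genes. None of the members of any of the 40 groups was called. Among 19 neutrophil granule proteins the median was -0.072 and 0 members had such a p, and among 17 neutrophil alarmins and chemotaxis genes it was -0.0042 with 0 members. In the latter the smallest p was that of the Fc receptor FCGR3A (log2 fold change 0.28, standard error 0.21). The 19 genes of the interleukin-1 family and inflammasome had a median of -0.026 and 0 members, and all 19 intervals lay inside a 2-fold difference. The cytokine IL1A, the smallest p among them, gave a log2 fold change of 0.31 (standard error 0.20). Toll-like receptors and adaptors (19 genes, median -0.0085), cytokine STAT targets (19 genes, 0.028) and acute phase and iron genes (13 genes, 0.062) had 0 such members as well. A further 8 acute phase and iron genes were not tested, among them SAA3, with no count in 26 libraries, and CRP, with none in 23. Of the 24 genes of TNF and NF-kB feedback (median -0.02), 1 had such a p. It was LTA, the lymphotoxin made by activated lymphocytes, at 1.69, 4.03 and 7.25 CPM (lowest, median, highest) in healthy and 1.49, 2.57 and 4.20 CPM in BRD animals (log2 fold change -0.64, standard error 0.19, unadjusted p = 0.00214, FDR = 1.0 by edgeR).

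Interferon genes stood slightly above 0 in the pooled comparison. For the type I genes this turned with the first pen as covariate, a fit to which COMBO adds nothing, and without 1 animal. Of 38 type I interferon-stimulated genes, 32 had a log2 fold change above 0, but the median was 0.097 and 1 member had an unadjusted p below 0.05. This was OAS1X, a relative of the antiviral RNA sensor OAS1, at 0 to 0.827 CPM in healthy animals and 0.244 to 12.8 CPM in BRD animals, with AAC animal 21 at 12.8 CPM, INR animal 17 at 5.34 CPM and INR animal 29 at 2.08 CPM above the healthy range by the most (log2 fold change 2.05, standard error 0.72). The summed level of the 38 genes ranged from 3440 to 15100 CPM in healthy animals and from 3410 to 25700 CPM in BRD animals, with medians of 5720 and 6470 CPM. High interferon levels thus occurred in both groups. With the first pen in place of the supplement as covariate, the median of the type I genes was -0.21 and 5 of 38 lay above 0, and without COMBO BRD animal 18 the median was -0.16. Only pens 2, 3, 4 and 8 held both BRD and healthy animals. The disease difference in the pen fit thus came from AAC and part of INR, and COMBO added nothing to it. Within supplements, 36 of the 38 were above 0 in COMBO, where pen, any further drench and disease cannot be told apart, against 16 in AAC and 20 in INR. Of 17 interferon-gamma response genes, 15 were above 0, with a median of 0.26 and 0 members at such a p, and SOCS1, the feedback inhibitor of interferon signalling, had the smallest p (log2 fold change 0.46, standard error 0.25). Among 16 genes of MHC class I processing (median 0.091), 1 member was higher and 1 lower at an unadjusted p below 0.05. The peptide transporter subunit TAP2 was the higher, with a log2 fold change of 0.31 (standard error 0.12).

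Most stress, hormone and metabolic groups had pooled medians close to 0 too. The 23 cytosolic and mitochondrial heat shock genes had the highest median among them, 0.20, with 20 above 0 and 0 members at an unadjusted p below 0.05. That median was -0.0032 without COMBO BRD animal 18 and -0.0053 with the first pen as covariate, a fit in which COMBO adds nothing to the disease difference. The 22 genes of endoplasmic reticulum stress had a median of 0.089, 20 above 0, and 2 members at an unadjusted p below 0.05. The co-chaperone DNAJC3 had the smallest p (log2 fold change 0.20, standard error 0.070), and all 22 intervals excluded a 2-fold difference. Glucocorticoid-induced genes (18 genes) had a median of 0.13 with 0 such members, and their best known member TSC22D3 (GILZ) gave a log2 fold change of 0.28 (standard error 0.14). Within AAC their median was 0.27, with 18 of 18 above 0 and 5 higher at such a p, beside 4.93% of all genes. The median was 0.015 in COMBO, with 0 higher, and 0.090 in INR, with 1 higher. With the first pen as covariate it was 0.28 with 6 higher, beside 6.23% of all genes in either direction. Among 24 genes of PPAR and fatty acid oxidation (median 0.03), 1 had such a p, namely PDK4, which restrains glucose oxidation in fasting (log2 fold change 0.46, standard error 0.17). Among 19 clock genes (median 0.0091), 1 had such a p, the repressor BHLHE40 (log2 fold change -0.34, standard error 0.13). Glycolysis (23 genes, median -0.012), cholesterol genes (25 genes, 0.01), the cell cycle (30 genes, 0.0013), ribosomal proteins (78 genes, 0.0063), the respiratory chain (81 genes, -0.0056), the proteasome (37 genes, 0.012) and splicing factors (69 genes, -0.0017) had medians within 0.02 of 0. Of these groups, the ribosomal proteins had 1 member with such a p and the others had 0.

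For the minerals that the supplements carry, 22 zinc storage and transport genes had a median of 0.046 and 26 copper and cobalamin genes one of -0.012. In the first group 1 member had an unadjusted p below 0.05. This was MTF1, the zinc-sensing transcription factor that switches on metallothioneins, at 5.07, 7.93 and 11.2 CPM (lowest, median, highest) in healthy and 4.19, 10.9 and 38.5 CPM in BRD animals (log2 fold change 0.78, standard error 0.27, unadjusted p = 0.00775, FDR = 1.0 by edgeR). The highest values were in AAC animal 21 and in COMBO animals 54 and 18. In the second group 0 members did, and 25 of 26 intervals lay inside a 2-fold difference. Antioxidant enzymes (26 genes) had a median of -0.015 with 0 such members.

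Of the cell type markers, the 19 B cell markers had the lowest median, -0.24, with 4 of 19 above 0, though 0 members had an unadjusted p below 0.05. T cell markers (24 alpha-beta T cell and naive markers) had a median of 0.07 and 1 such member, the interleukin-7 receptor IL7R (log2 fold change 0.41, standard error 0.17). The 11 markers of gamma-delta T cells, which are abundant in young ruminants and carry the WC1 co-receptors, had a median of 0.29 and 1 such member, WC1.3 (0.66, standard error 0.25). One of the 11, BLK, was also in the B cell list, and CD163L1, WC1 and WC1-8 had medians of only 0.0692, 0.0564 and 0 CPM. NK and cytotoxic markers (25 genes) had a median of 0.11, monocyte markers (18) one of 0.068, eosinophil and basophil markers (17) one of 0.039, platelet markers (21) one of 0.083, plasma cell genes (16) one of 0.10, and regulatory T cell and checkpoint genes (17) one of 0.14. Of the NK markers 1 was higher and 1 lower at such a p. Among the regulatory T cell and checkpoint genes 1 was higher, and the other groups of this list had 0 such members. Erythroid genes (28) had a median of 0.22 with 0 such members, and their summed level differed widely among animals of the same group, from 787 to 58300 CPM in healthy and from 604 to 44600 CPM in BRD. In RNA from whole blood, fewer cells of a type and less RNA per cell cannot be told apart.

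**Figure D3:**
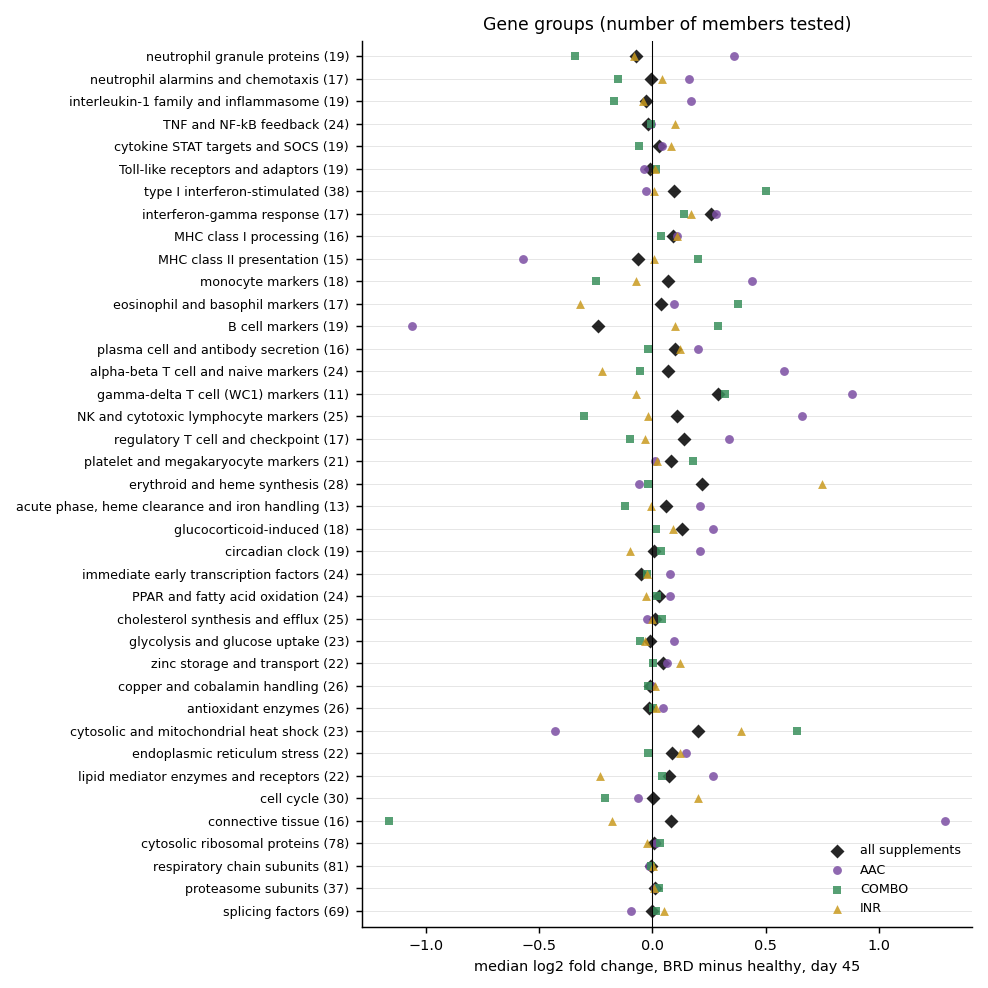
Median log2 fold change at day 45 (BRD minus healthy, x axis) of 39 gene groups with the number of members tested in parentheses, for all animals together (black diamonds) and within AAC (purple circles), COMBO (green squares) and INR (yellow triangles). The pooled medians lay between -0.24 and 0.29, while within supplements those of the connective tissue genes, some of them sparse (1.29 in AAC, -1.16 in COMBO), the B cell markers and the heat shock genes lay farthest apart.

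The difference between BRD and healthy was then taken within each supplement, from a model with a mean for each of the 6 groups. Within AAC, 2 genes were called (percent called 0.0114), within COMBO 1 (0.00570) and within INR 2 (0.0114). At an unadjusted p below 0.05 stood 1927 genes within AAC (11%), 626 within COMBO (3.57%) and 647 within INR (3.69%). In the test of whether the difference depended on the supplement, 0 genes were called (percent called 0), with 1359 genes (7.75%) at an unadjusted p under 0.05. The lowest interaction p were those of NUAK1, LOC104969351 and KLHL14, with FDR of 0.277, 0.313 and 0.313 (edgeR).

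In AAC the B cell markers were lower in BRD animals. Their median log2 fold change was -1.06, and 15 of 19 were lower at an unadjusted p below 0.05, beside 6.06% of all genes lower at that p. The 19 mark the same cells in the same 4 BRD and 4 healthy animals, so they are not independent and their number is no test. In 14 of the 19, every BRD animal was below every healthy animal, as was so for 6.2% of all genes. None of them passed an FDR of 0.10. Named after their values were seen, from among those of smallest p, were TNFRSF13C (the BAFF receptor, log2 fold change -1.47, standard error 0.34, FDR = 0.318 by edgeR), the lineage factor EBF1 (-1.22, standard error 0.33) and the receptor subunit CD79B (-1.19, standard error 0.33). The summed level of the 19 B cell markers was 3490, 3790, 4430 and 5200 CPM in the 4 healthy AAC animals and 1550, 2240, 2470 and 2750 CPM in the 4 BRD animals, so that the groups did not overlap. The order held within both pens of enrolment, with BRD animals at 1550 and 2750 and healthy animals at 3790 and 5200 CPM in pen 2, and BRD animals at 2240 and 2470 and healthy animals at 3490 and 4430 CPM in pen 8. When each AAC animal was left out in turn, between 12 and 16 of the 19 markers remained lower at an unadjusted p below 0.05.

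Some genes tied to B cells lay on the same side within AAC, whereas the 16 plasma cell genes had a median of 0.20 there, with 11 above 0. PLCG2 and KLHL14 were named for a small p in these same data, so they are no separate evidence. PLCG2, the phospholipase downstream of the B cell receptor, was called, at 267 to 383 CPM in healthy and 93.2 to 130 CPM in BRD animals, without overlap (log2 fold change -1.61, standard error 0.28, FDR = 0.0868 by edgeR). It overlaps LOC132342786 on the RefSeq map. KLHL14, a B cell ubiquitin ligase adaptor, was at 8.15 CPM or more in healthy and at 2.36 to 5.34 CPM in BRD animals (-1.43, standard error 0.30, FDR = 0.313 by edgeR). Among 15 genes of MHC class II presentation, which B cells express strongly, the median within AAC was -0.57 and 5 were lower at an unadjusted p below 0.05. The invariant chain CD74 was among them (-0.68, standard error 0.26).

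T cell and NK markers lay on the other side within AAC. Of 24 alpha-beta T cell and naive markers, 14 were higher at an unadjusted p below 0.05, with 4.93% of all genes higher at that p, and the median was 0.58. Their summed level was 2220 to 3630 CPM in healthy and 4080 to 4860 CPM in BRD animals, again without overlap. The co-receptor CD8A differed by 0.96 on the log2 scale (FDR = 0.318 by edgeR, standard error 0.23), and IL7R by 0.93. Of 25 NK and cytotoxic markers, 12 were higher (median 0.66), CST7 and the granzyme GZMK among them (1.03 and 1.57), and the sums were 534 to 795 CPM in healthy and 833 to 1030 CPM in BRD animals. Of 11 gamma-delta T cell markers, 4 were higher (median 0.88), and WC1.3 gave a log2 fold change of 1.47. CD8A, CST7 and GZMK, like the B cell genes above, were named after their values were seen. On the CPM scale the B cell, T cell and NK markers differed within AAC in opposite directions, and the part of each in the differences of the others was not tested.

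COMBO and INR gave other values. The B cell median was 0.29 in COMBO, with 1 marker higher and 0 lower at an unadjusted p below 0.05, and 0.10 in INR, with 0 markers. In COMBO the sums were 2780 to 4460 CPM in healthy and 3730 to 4340 CPM in BRD animals, and in INR 2960 to 5320 and 2150 to 6650 CPM. T cell markers had medians of -0.055 in COMBO and -0.22 in INR, and NK markers -0.30 and -0.017. In the interaction test, 14 of the 19 B cell markers, 11 of the 24 T cell markers and 8 of the 25 NK markers had an unadjusted p below 0.05, beside 7.75% of all genes. None was called, and TNFRSF13C had an interaction FDR of 0.526 and CD8A one of 0.388 (edgeR). With the pen of enrolment in place of the supplement as covariate, 8 of the 19 B cell markers were lower at an unadjusted p below 0.05 (median -0.60), beside 3.60% of all genes. The disease difference in that fit came only from pens 2 and 8 of AAC and pens 3 and 4 of INR, which held both BRD and healthy animals. It is therefore largely the AAC difference again, with COMBO adding nothing. In that fit 6.23% of all genes had such a p in either direction, and 0 genes were called.

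**Figure D4:**
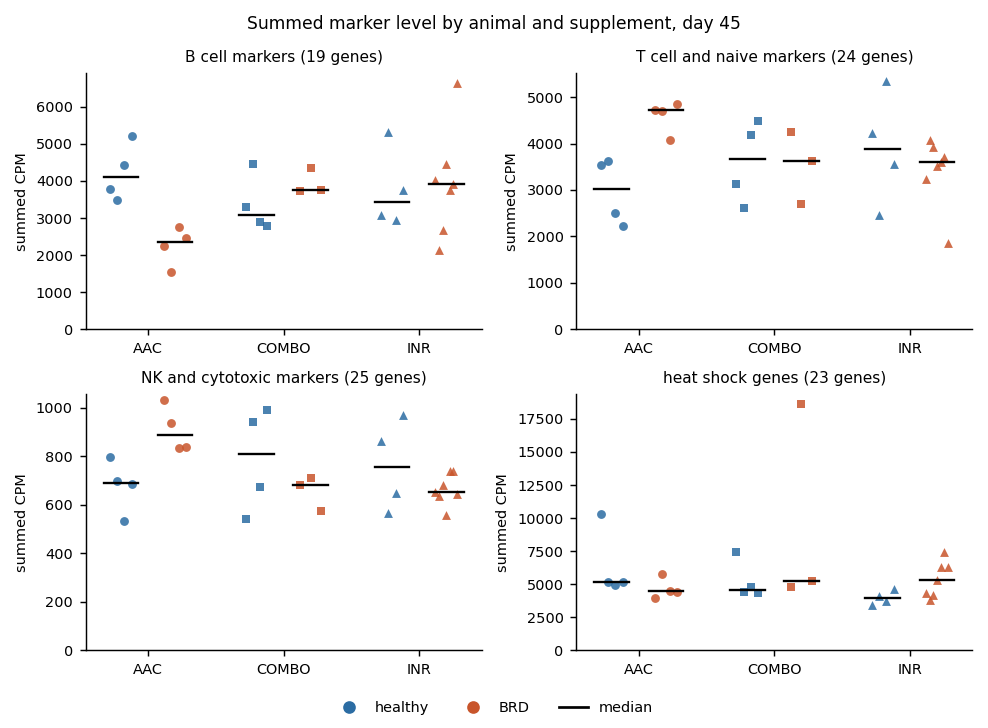
Summed CPM (y axes, from 0) of 4 gene groups in each animal at day 45, by supplement, healthy in blue and BRD in orange, with bars at the group medians. In AAC the B cell sums of BRD animals (1550 to 2750 CPM) lay below all healthy ones, and in COMBO a single BRD animal held the high heat shock sum.

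The AAC animals differed in B cell markers at every sampled day. On a CPM scale without TMM factors, the summed level at day 0, when the trial began, was 3000 to 5660 (median 3690) in the healthy and 1410 to 2260 (median 2100) in the BRD animals. At day 28 it was 3550 to 5560 against 1660 to 2640, at day 45 3400 to 5420 against 1550 to 2760, and at day 60 3500 to 4910 against 1680 to 2780. At day 13, with 3 healthy libraries, it was 3050 to 4430 against 1530 to 2670. The groups thus did not overlap on any day. These are the same 8 animals sampled again, so the days are not independent, and the order seen at day 45 was already present in these animals at day 0. In COMBO the BRD animals had the higher median on each day, with ranges that did not overlap at days 0, 13 and 28 (3290 to 5250 against 1160 to 2920 at day 0) and that overlapped at day 45. The T cell and NK sums within AAC were not apart on every day. Those of the T cell markers overlapped at days 0, 13 and 28 (2400 to 3770 in healthy and 3520 to 5860 in BRD animals at day 0). Those of the NK markers overlapped at days 0, 13 and 60.

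**Figure D5:**
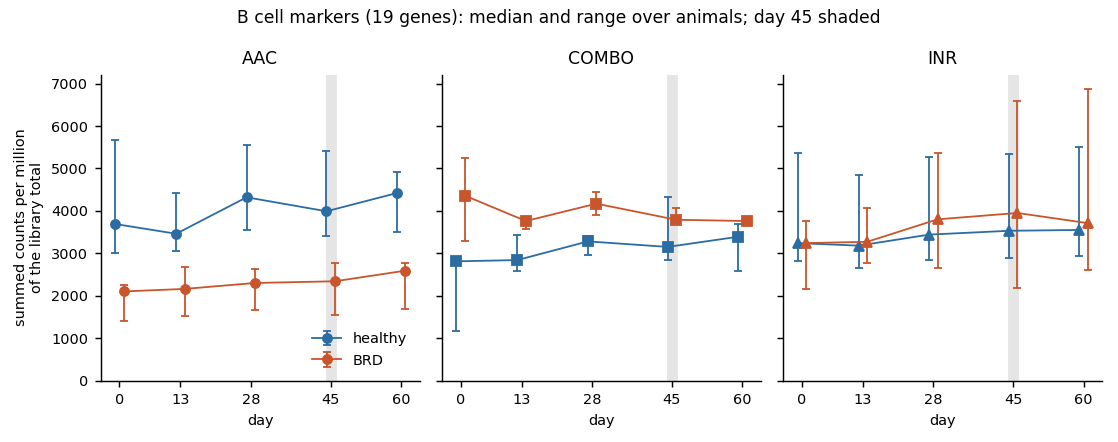
Summed level of the 19 B cell markers (CPM without TMM factors, y axis from 0) on each day of sampling, with points at the median and bars from the lowest to the highest animal, healthy in blue and BRD in orange. In AAC the healthy animals lay above the BRD animals on all 5 days, day 0 included, while in INR the ranges overlapped throughout.

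Within COMBO, heat shock genes were the group with the most members at an unadjusted p below 0.05. Of 23 cytosolic and mitochondrial heat shock genes, 11 were higher in BRD at that p (median 0.64, 22 above 0), beside 1.83% of all genes. These 11 rested on COMBO animal 18. Its HSPA1A, the inducible HSP70, was at 4300 CPM, against 136 and 171 CPM in the 2 other COMBO BRD animals and 136 to 602 CPM in the COMBO healthy animals, and its DNAJB1 was at 503 CPM. Without this animal, 0 of the 23 had such a p and the median was -0.074, whereas 5 to 16 had it when another COMBO animal was left out. The same animal had the highest level of IFIT2, an interferon-induced antiviral protein, followed by COMBO animal 54. Within AAC the median of the heat shock genes was -0.43, with 0 of 23 above 0 and 4 lower at such a p. There the highest sum was that of healthy animal 34 (10300 CPM). Within INR, to which animal 18 does not belong, the median was 0.39 with 23 of 23 above 0 and 1 higher at such a p, and the sums overlapped (3400 to 4620 CPM in healthy and 3800 to 7400 CPM in BRD animals). In the interaction test, 14 of the 23 had an unadjusted p below 0.05, beside 7.75% of all genes, and none was called.

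The gene called within COMBO was NUAK1, a kinase of the AMPK family (FDR = 0.0248 by edgeR). It had no count in the 3 BRD animals and 0.131 to 0.245 CPM in the 4 healthy animals. With a floor of 3 counts per library in the BRD animals, NUAK1 was at least 2.92-fold lower, and the level was low in both groups. LOC104969351, the gene called higher within AAC (log2 fold change 2.85, standard error 0.44, FDR = 0.0164 by edgeR), was at 3.48 to 4.44 CPM in the healthy animals and at 5.50, 28.4, 33.4 and 46.2 CPM in the BRD animals. The 18 animals on the other supplements were between 2.85 and 7.81 CPM, so that 3 AAC BRD animals stood apart from the other 23. Within INR the 2 genes called were lower in BRD. LOC112442318, a long non-coding RNA, had 56.5 CPM in healthy animal 10 and 0.441 CPM or less in the other 25 animals. LOC112442349 was at 0.561, 0.616, 1.75 and 2.38 CPM in the healthy INR animals and at 0.212 CPM or less in the 7 BRD animals, but at 0.0466 to 1.54 CPM among the AAC BRD animals. Erythroid genes had a median of 0.75 within INR with 0 of 28 members at an unadjusted p below 0.05.

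The disease difference at day 45 was last compared with that of the other sampling days, in all libraries of the series with the animal as a block. No gene was called against day 28, against day 60 or against the mean of the other 4 days (percent called 0 in each of 18937 genes tested), and 441, 453 and 473 of them (2.33%, 2.39% and 2.5%) stood below an unadjusted p of 0.05. The lowest FDR were 0.974, 0.280 and 1.0 (edgeR). Against day 28 the smallest p were those of LOC112442362 (difference of log2 fold changes -2.42, standard error 0.64), DDX6, an RNA helicase of processing bodies (-1.21, standard error 0.33), and LILRA4, a receptor of plasmacytoid dendritic cells (2.44, standard error 0.67). LILRA4 was low at day 45, with medians of 0.044 CPM in healthy and 0.951 CPM in BRD animals. The healthy INR animals had a median of 3.03 CPM. Its log2 fold change at day 45 was 4.67 in AAC, 3.66 in COMBO and -1.01 in INR. Against day 60 the smallest p were those of LOC100337244 (-8.54, standard error 1.74), LOC112441494 (-7.08, standard error 1.6) and PDSS2, an enzyme of coenzyme Q synthesis (-0.46, standard error 0.12). The size for LOC100337244 depended on the fit. Without the animal term its log2 fold change was -0.72 (standard error 0.94) at day 45 and 3.87 (standard error 1.49) at day 60. With the animal as a block, its contrast against the mean of the other days had no standard error. Against the mean of the other days the genes of smallest p were LILRA4 (2.1, standard error 0.55), LOC100138633 (-0.38, standard error 0.11) and GNAT2 (-7.29, standard error 2.1).

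Of the 16 genes of smallest p at day 45, 7 kept the direction of their difference on all 5 days and 9 did not. In a fit of all libraries without the animal term, EIF4G2 gave a log2 fold change of 0.67 at day 45 and of 0.26, -0.073, -0.37 and -0.22 at days 0, 13, 28 and 60 (standard errors 0.25 to 0.26). PIDD1 had -0.68 at day 45 and between -0.022 and 0.17 on the other days (standard errors 0.22 to 0.23), and CD300LF 0.98 at day 45 and between -0.095 and 0.35 on the other days. Among those with the same direction on every day, the MIR2374 transcript had values from -1.33 at day 13 to -1.92 at day 45 (standard errors 0.55 to 0.57), B3GAT1 from -1.46 to -0.58, LOC112445540 from -2.74 to -1.54 and LOC101904992 from -0.78 to -0.33. LOC100336795 ranged from 5.51 to 6.98, LOC112444644 from 3.28 to 7.20 and FAM107B from 0.029 to 0.20. The days sample the same animals again, so they are not independent. The medians of the 38 type I interferon-stimulated genes were 0.71, 0.37, 0.36, 0.097 and -0.089 at days 0, 13, 28, 45 and 60. Those of the 11 gamma-delta T cell markers were 0.44, 0.36, 0.24, 0.29 and 0.30 on the same days. WC1.3 lay between 0.54 at day 0 and 0.66 at day 45, so its difference was not particular to day 45.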

How the data were processed

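Whole blood RNA-seq of cattle was deposited as one table of gene counts, of which the 26 day 45 libraries make up the comparison. Per the labels and the methods, the authors trimmed reads with Trimmomatic 0.39, aligned them with HISAT2 (2.1.1 in the processing notes) to ARS-UCD1.3 and assembled transcripts with StringTie 2.2.0. The deposited counts are derived from transcript coverage for reads of 150 bases and are not normalized, so overlapping genes and near-identical family members may share reads. No column was left unused (0).

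From these counts, 17530 of 32395 genes passed edgeR's filterByExpr. They were fitted with edgeR 4.0.16 in R 4.3.3 (TMM factors, common dispersion, quasi-likelihood F-test) on supplement and disease status, at a Benjamini-Hochberg FDR of 0.10, as in the study's methods. CPM use TMM library sizes. Within-supplement differences came from a fit with 6 group means, so the 3 supplements share 1 estimate of spread. Day contrasts used all libraries with animal as a block. Standard errors were taken from the fold change and F, and were undefined for 2 genes. The script was tested on simulated data. Alternatives were RLE factors, trended dispersion, DESeq2 1.42.0, limma 3.58.1 (voom), FDR 0.05, other filters (none, or 1 CPM in 12 libraries), no covariate, first pen, all libraries, each supplement and leaving out each animal.

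The comparison, its 40 gene lists and its tests were chosen with earlier results of these data known. Named were the 8 genes of smallest p in each direction, 1 gene of smallest p per list where it was of use, the 3 of smallest p per further test, and ATP6. Others are said to be chosen after their values were seen. The gene groups described within a supplement were also picked from the 40 after their values were seen. Members of 1 group were measured in the same animals and are not independent. Genes were matched by symbol to a RefSeq table of ARS-UCD2.0, a different build, used for names and overlaps only (27 of 32 checked genes matched, and of 24 placed on a chromosome 11 overlapped another gene). Besides EIF4G2, GNAT2, the MIR2374 transcript and PLCG2, these were CD300LF, LOC112444644, LOC101904992, F11R, LOC112442318, DDX6 and PDSS2. Depth was 39497591 to 61692136 counts per library. The labels give each library as a separate animal.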

Additional observations from a re-analysis of the deposited data

Results flagged for a closer look

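Within groups of 4 to 10 animals, the genes called within a supplement were looked at for a library that stood apart from the rest of its group by Dixon's test at 95%, which chance alone meets in about 1 of 20 groups. LOC112442318 stood at 56.5 CPM in 1 of the 4 healthy INR animals, against 0.441 CPM at most in the others, and its call within INR came from that animal. LOC112442349 stood at 0.212 CPM in 1 of the 7 BRD INR animals, above the other 6.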

How the results depend on the processing

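The main limit is the number of animals, 14 against 12, with 3 to 7 in each group within a supplement, and the unknown interval between illness and day 45. Counts derived from transcript coverage gave several genes that were present in some animals and absent in others, and for these a fold change describes few animals. BRD and healthy cattle were different animals, so no pairing applied within day 45.

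The count of genes called at day 45 was 0 with RLE factors, trended dispersion, limma, an FDR of 0.05, no filter, the stricter filter, no supplement covariate, the first pen as covariate, and all libraries in one fit with a mean per group and day. It was 7 with DESeq2, 2 in AAC, 1 in COMBO and 2 in INR. It was 1 in a fit of all libraries with supplement by day, an alternative chosen after seeing the data. That gene, LOC112441542, had 12991 and 16654 counts in 2 BRD animals and none in the others. With each animal left out in turn, it ranged from 0 to 0, with 428 to 906 genes at an unadjusted p below 0.05. Within AAC it ranged from 0 to 2, within COMBO from 0 to 2 and within INR from 0 to 4, also chosen after seeing the data. The interaction test called 1 gene, NUAK1, with trended dispersion and 0 with RLE factors.

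For the day contrasts, the fit with no replicate block (no animal term) called 0 genes against day 28, day 60 and the mean of the other days, with 220, 208 and 211 genes at an unadjusted p below 0.05, and RLE factors and trended dispersion also called 0.

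Single genes changed sign mainly where 1 supplement was taken alone. In AAC alone the log2 fold changes were -0.61 for LOC112444644, 0.0082 for MRC1, -0.072 for BTLA, -0.16 for PPBP, -0.098 for EPB42, 0.12 for NQO1, 0.46 for NUAK1 and 0.67 for IGHG1. In COMBO alone they were 4.24 for GNAT2, -0.003 for FCGR3A, -0.03 for SOCS1, 0.18 for SPIB, -0.12 for HSD17B7, 0.32 for NQO1, -0.41 for E2F1, -1.57 for LUM, 0.20 for ATP5ME, 0.72 for KLHL14 and -0.10 for ATP6. In INR alone they were -0.74 for LOC100336795, 0.018 for SIGLEC10, 0.068 for TRAP1, -0.10 for HPGDS, -1.01 for LILRA4, -0.07 for LOC104969351, 0.40 for KLHL14 and -1.36 for ATP6. KLHL14, at -0.07 with all animals, was 0.034 without the covariate and ranged from -0.17 to 0.056 with each animal left out, above 0 without BRD animal 9, 21 or 41. ATP6 ranged from -1.74 (without BRD animal 40) to 4.93. Within COMBO, HSPA1A ranged from -0.81 to 3.34, DNAJB1 from -0.16 to 1.62 and BAG3 from -0.099 to 1.41, each lowest without BRD animal 18. The causes were not tested. The medians of 32 of 479 list and setting pairs moved by more than the spread between animals, nearly all where 1 supplement was taken alone, and none of 1040 when an animal was left out.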
